A study of Mus musculus with 4 samples.

Results

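The type I interferon-stimulated genes Ifit1, Ifit2, Ifit3, Isg15, Rsad2, Ifi44, Oasl2, Mx1, Irf7 and Usp18 were followed in mouse pancreatic duct libraries. These 10 genes were taken by name from the 52535 gene models of each count file, and 10 of 10 passed the filter on low counts that left 13990 genes to test. RNA sequencing had been done on 2 libraries of wild-type C57BL/6 mice (WT 1 and WT 2) and 2 libraries (KO 1 and KO 2) of C57BL/6 mice with the genotype Lats1fl/fl; Lats2fl/fl; Sox9-CreER. In that genotype both alleles of Lats1 and Lats2, kinases of the Hippo pathway, are flanked by loxP sites, and the tamoxifen-dependent Cre is made in cells that express Sox9, which in the pancreas are mainly duct cells. The comparison asks which genes differ between these genotypes. The loxP-flanked alleles and the Cre go together with the knockout label, so their effects cannot be told apart. The sources used here do not give the age of the mice, the tamoxifen treatment, the time after it or the way duct cells were taken.

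Type I interferons are secreted when a cell senses foreign or misplaced nucleic acid. They bind the receptor IFNAR1/IFNAR2, the kinases JAK1 and TYK2 phosphorylate STAT proteins, and these join IRF9 in a complex that binds the interferon-stimulated response element (ISRE) in the promoters of its target genes. Several of the genes here can also be induced directly by interferon regulatory factors, without secreted interferon. Epithelial cells, macrophages, lymphocytes and stromal cells can all mount the response.

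RefSeq promoter windows (build GRCm38.p6, 300 bases each, 250 before to 50 after the transcription start) were matched by symbol for 8 of the 10 genes, and Mx1 and Usp18 had no entry. The windows were searched on both strands for the core letters of the ISRE, which are GAAA, any 2 bases and GAAA again, or TTTC, any 2 bases and TTTC on the other strand. Matches may overlap one another. Ifit1, Ifit3, Isg15 and Rsad2 held at least 1 match, 4 of 8 genes, against 3.99% of the 27025 genes with a window. Ifi44, Ifit2, Irf7 and Oasl2 held none in this window. The 4 genes with a match and Ifi44, which has none, are shown because they include the genes that rose most and genes that did not pass the test. Capitals mark the matched letters, and each window reads 5′ to 3′ on the strand of its gene.
Rsad2, chr12:26456403-26456702, minus strand: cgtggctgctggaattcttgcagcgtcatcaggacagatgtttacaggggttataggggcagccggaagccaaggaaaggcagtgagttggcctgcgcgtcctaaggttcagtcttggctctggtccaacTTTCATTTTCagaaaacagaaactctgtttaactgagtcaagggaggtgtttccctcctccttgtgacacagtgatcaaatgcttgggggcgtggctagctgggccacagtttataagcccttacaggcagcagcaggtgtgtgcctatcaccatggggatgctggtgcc
Ifi44, chr3:151749861-151750160, minus strand: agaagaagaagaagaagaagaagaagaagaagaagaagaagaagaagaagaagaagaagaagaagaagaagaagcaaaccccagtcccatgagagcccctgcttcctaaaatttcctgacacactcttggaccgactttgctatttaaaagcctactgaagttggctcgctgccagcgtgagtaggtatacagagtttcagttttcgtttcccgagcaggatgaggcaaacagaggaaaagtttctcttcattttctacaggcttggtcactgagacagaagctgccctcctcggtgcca
Isg15, chr4:156200769-156201068, minus strand: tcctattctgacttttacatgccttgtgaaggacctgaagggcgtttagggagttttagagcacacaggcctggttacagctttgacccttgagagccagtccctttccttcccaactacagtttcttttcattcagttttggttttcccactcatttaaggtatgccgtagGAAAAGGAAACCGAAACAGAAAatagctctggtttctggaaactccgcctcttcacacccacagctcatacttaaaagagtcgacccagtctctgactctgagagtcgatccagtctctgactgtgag
Ifit1, chr19:34640639-34640938, plus strand: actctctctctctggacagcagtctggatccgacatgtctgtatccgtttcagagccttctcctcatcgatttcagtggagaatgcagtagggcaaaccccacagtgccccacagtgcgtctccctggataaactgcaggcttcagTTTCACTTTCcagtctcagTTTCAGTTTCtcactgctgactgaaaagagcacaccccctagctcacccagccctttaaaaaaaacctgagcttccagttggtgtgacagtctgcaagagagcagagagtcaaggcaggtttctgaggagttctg
Ifit3, chr19:34583279-34583578, plus strand: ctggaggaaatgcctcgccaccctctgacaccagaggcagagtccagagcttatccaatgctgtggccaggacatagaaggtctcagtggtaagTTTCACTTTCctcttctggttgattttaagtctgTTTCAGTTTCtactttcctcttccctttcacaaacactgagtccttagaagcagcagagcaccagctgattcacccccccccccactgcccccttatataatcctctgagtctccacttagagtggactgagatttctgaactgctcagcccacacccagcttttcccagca
In Isg15 the capitals are 3 overlapping matches, which begin 78, 72 and 66 bases before the start. The single match in Rsad2 begins 120 bases before the start. Ifit1 and Ifit3 held the same 2 words, TTTCACTTTC and TTTCAGTTTC, at 104 and 85 bases before the start in Ifit1 and at 156 and 122 in Ifit3. A match describes letters and does not show that a factor binds there. Only exact matches were counted, so a window without one may still hold the element with a different letter.

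The libraries held RNA of several cell types, with 3566387 to 5925601 counts each. Duct markers were present in all libraries and summed to 1975 to 2482 CPM in wild type and 14415 to 14723 CPM in the libraries labelled knockout (CPM are read counts scaled to library size with TMM factors). Acinar markers summed to 44107 to 79166 CPM in wild type and 155 to 3526 CPM in the libraries labelled knockout. Of 12 duct markers 8 rose and 1 fell at an edgeR adjusted p under 0.05. Of 10 tested acinar markers 2 fell and 8 did not pass, beside 22.0% risen and 20.2% fallen among all genes tested. In bulk RNA, fewer cells of a type and less RNA per cell cannot be told apart. Lats1 stood at 50.8 CPM (WT 1), 65.6 (WT 2), 70.0 (KO 1) and 79.2 (KO 2), and Lats2 at 114, 102, 163 and 121 CPM in the same order. Neither was lower in the libraries labelled knockout, and neither passed the test (edgeR adjusted p = 0.172 and 0.127). Counts over whole gene models include transcripts that lose only some exons and do not check the deletion, so the groups are named by their labels. No source says that replicates are separate animals, so the spread behind the p-values may be technical.

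Rsad2, Ifi44, Irf7 and Ifit2 rose in the libraries labelled knockout, and the other 6 genes did not pass the test. Rsad2 rose 5.92-fold, Ifi44 2.82-fold, Irf7 1.74-fold and Ifit2 1.72-fold, where a gene counts as risen at an adjusted p under 0.05 in edgeR's quasi-likelihood test over all genes. Of the 13990 genes tested, 22.0% rose and 20.2% fell by the same rule, 42.2% in all. The 10 genes had a median log2 change of 0.74, beside -0.0069 over all genes tested. Their median was 0.47 without KO 1 and 1.00 without KO 2, the lowest and highest of the fits without 1 library. By edgeR 0 of the 10 genes fell, 0 fell at an unadjusted p under 0.05 and 0 fell by DESeq2. At an unadjusted p under 0.05, 6 of the 10 were higher, and the same count was not made over all genes. By DESeq2 3 of the 10 rose, beside 2564 risen and 2447 fallen of the 13990 genes. Both knockout-labelled libraries lay above both wild-type libraries in 6 of the 10 genes, against 37.4% of all genes tested, and below them in 0 of the 10, against 36.8%. The groups thus did not overlap in 6 of the 10 genes, against 74.3% of all genes. With upper quartile scaling Irf7 and Ifit2 did not pass, and 2 of the 10 genes rose. Without the filter on low counts Mx1 fell, with a log2 change of -0.80 (edgeR adjusted p = 0.0434). Leaving out WT 1 gave log2 changes of 0.58 for Irf7, 0.61 for Ifit2, 1.64 for Isg15 and -1.42 for Mx1. Leaving out KO 1 gave 0.49 for Irf7 and 0.46 for Ifit2.

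**Figure D1:**
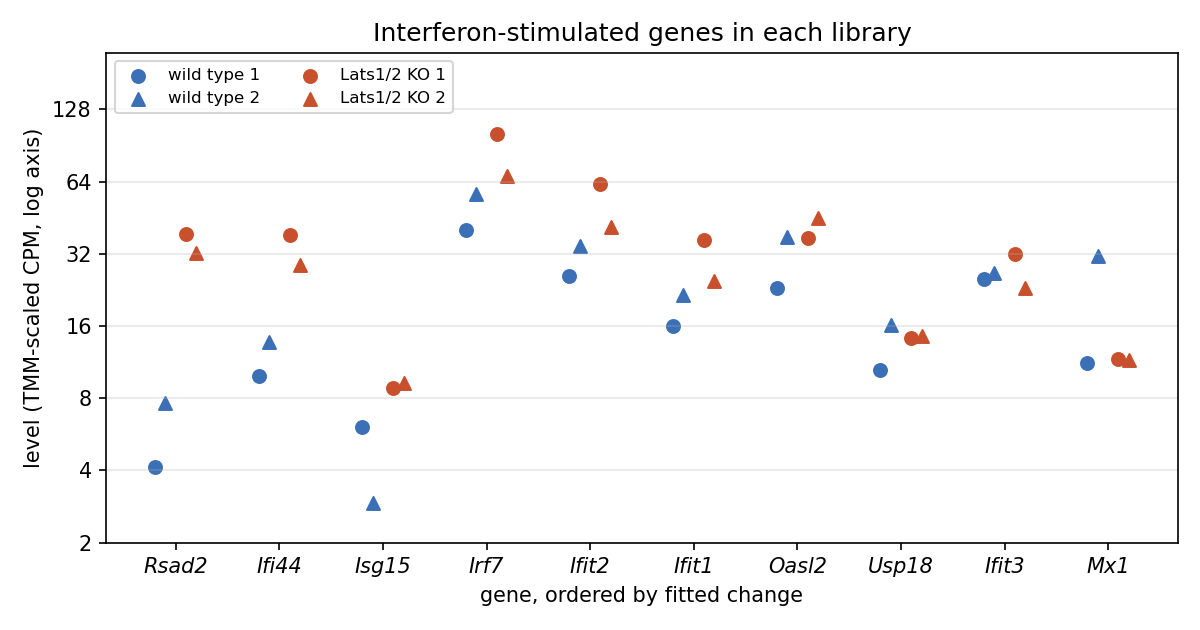
Level of each of the 10 genes in each library, as TMM-scaled CPM on a log axis, with wild type in blue, the libraries labelled knockout in orange, circles for replicate 1 and triangles for replicate 2. The 2 groups lie apart for Rsad2, Ifi44, Isg15, Irf7, Ifit2 and Ifit1 and overlap for Oasl2, Usp18, Ifit3 and Mx1.

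Rsad2 encodes viperin, a radical SAM enzyme that makes a chain-terminating nucleotide and restrains many viruses. Its model lies on chromosome 12, 26442746 to 26456452 (minus strand) in mm10. Rsad2 had 15 and 34 counts in wild type and 192 and 200 in the libraries labelled knockout. WT 1 held 4.12 CPM of Rsad2 and WT 2 7.64, while KO 1 held 38.6 and KO 2 32.4. Both knockout-labelled libraries stood well above both wild-type libraries. The log2 change of Rsad2 was 2.57 ± 0.32 (SE of the fit, n = 2 per group, edgeR adjusted p = 0.000439), and it ranged from 2.23 to 3.10 when 1 library was left out.

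Ifi44, an interferon-induced cytoplasmic protein, lies on chromosome 3, 151730922 to 151749960 (minus strand). The level of Ifi44 was 9.89 (WT 1) and 13.7 CPM (WT 2), against 38.4 (KO 1) and 28.7 CPM (KO 2). The groups did not overlap, and the log2 change was 1.50 ± 0.28 (SE of the fit, n = 2 per group, edgeR adjusted p = 0.00310). Rsad2 and Ifi44 passed under every alternative that was run. The related neighbour Ifi44l, chosen for mention after its values were seen, had 0 counts in wild type and 34 in the libraries labelled knockout. It was at least 8.53-fold higher, taking 3 counts over the wild-type group as the floor.

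Irf7, the transcription factor that amplifies type I interferon production and is itself induced by interferon, lies on chromosome 7, 141262706 to 141266481 (minus strand). Irf7 measured 40.1 CPM in WT 1, 56.6 in WT 2, 101 in KO 1 and 67.7 in KO 2. The groups did not overlap, although KO 2 stood nearer to WT 2 than to KO 1. The log2 change was 0.80 ± 0.25 (SE of the fit, n = 2 per group, edgeR adjusted p = 0.0332). It came to 0.58 (edgeR adjusted p = 0.149) without WT 1, 0.49 (edgeR adjusted p = 0.200) without KO 1 and 0.60 (edgeR adjusted p = 0.0891) with upper quartile scaling. The Irf7 model shares 45 bases with Phrf1 on the opposite strand, and the Usp18 model shares 15715 bases with an opposite-strand model that had at most 1 count in any library. The other 8 genes overlap no model.

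Ifit1, Ifit2 and Ifit3 encode tetratricopeptide proteins, which bind foreign RNA or one another and limit its translation. They lie in a cluster, Ifit2 on chromosome 19, 34550694 to 34576419 (plus strand), Ifit3 on chromosome 19, 34583531 to 34588731 (plus strand) and Ifit1 on chromosome 19, 34640871 to 34650009 (plus strand). WT 1 held 25.8 CPM of Ifit2 and WT 2 34.4, while KO 1 held 62.8 and KO 2 41.4. Its groups did not overlap, and its log2 change was 0.79 ± 0.26 (SE of the fit, n = 2 per group, edgeR adjusted p = 0.0399). For Ifit2 the adjusted p (edgeR unless named) was 0.101 with upper quartile scaling, 0.0634 by DESeq2, 0.163 without WT 1 and 0.232 without KO 1.

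The level of Ifit1 was 15.9 (WT 1) and 21.6 CPM (WT 2), against 36.4 (KO 1) and 24.6 CPM (KO 2). Its groups did not overlap, with KO 2 just above WT 2, but the log2 difference of 0.69 ± 0.28 (SE of the fit, n = 2 per group, edgeR adjusted p = 0.0760) did not pass. It passed without KO 2, at 0.99 (edgeR adjusted p = 0.0416), and without the filter on low counts, at 0.77 (edgeR adjusted p = 0.0178). The difference for Ifit1 shrank to 0.39 (edgeR adjusted p = 0.403) without KO 1 and to 0.51 (edgeR adjusted p = 0.273) without WT 1. Ifit3 measured 25.0 CPM in WT 1, 26.5 in WT 2, 32.0 in KO 1 and 23.1 in KO 2. KO 2 was the lowest of the 4 libraries for Ifit3 and KO 1 the highest, and the log2 difference was 0.094 ± 0.24 (SE of the fit, n = 2 per group, edgeR adjusted p = 0.782). In GENCODE M21, 51.2% of the 50-base words of the Ifit3 transcripts also occur in its copy Ifit3b, so reads could have been split or dropped between them and the value of Ifit3 is uncertain.

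Ifit1bl1 is a related gene of this cluster, with 6.45% of its 50-base words shared with other genes, and Ifit3b is a near copy of Ifit3, with 45.0% shared. Ifit1bl1 fell 4.19-fold. WT 1 held 9.89 CPM of Ifit1bl1 and WT 2 10.8, while KO 1 held 3.02 and KO 2 1.94. Its groups lay apart, and the log2 change was -2.07 ± 0.42 (SE of the fit, n = 2 per group, edgeR adjusted p = 0.00467). The level of Ifit3b was 6.87 (WT 1) and 11.7 CPM (WT 2), against 11.7 (KO 1) and 5.83 CPM (KO 2), and its groups overlapped (edgeR adjusted p = 0.865). The Ifit1 transcripts share 7.13% of their 50-base words with other genes, most of them with Ifit1bl2, and those of Ifit2 share 0%.

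Isg15 encodes a ubiquitin-like protein that is conjugated to target proteins or secreted. Its model lies on chromosome 4, 156199424 to 156200818 (minus strand). It had few counts, 22 and 13 in wild type and 44 and 57 in the libraries labelled knockout. Isg15 measured 6.05 CPM in WT 1, 2.92 in WT 2, 8.85 in KO 1 and 9.23 in KO 2. Both knockout-labelled libraries were higher than both wild-type ones, yet the log2 difference of 1.03 ± 0.43 (SE of the fit, n = 2 per group, edgeR adjusted p = 0.0862) did not pass. It came to 1.64 (edgeR adjusted p = 0.0351) without WT 1 and 0.58 (edgeR adjusted p = 0.383) without WT 2.

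Usp18, the protease that removes ISG15 from proteins and also dampens signalling at IFNAR2, lies on chromosome 6, 121245906 to 121270917 (plus strand). WT 1 held 10.4 CPM of Usp18 and WT 2 16.2, while KO 1 held 14.3 and KO 2 14.6. Both knockout-labelled libraries lay between the wild-type ones, and the log2 difference was 0.11 ± 0.31 (SE of the fit, n = 2 per group, edgeR adjusted p = 0.805). Among the enzymes of ISG15 conjugation the E1 enzyme Uba7 fell 5.08-fold (edgeR adjusted p = 0.000342). The level of Uba7 was 41.5 (WT 1) and 65.2 CPM (WT 2), against 9.46 (KO 1) and 11.5 CPM (KO 2). The E3 ligase Herc6 fell 3.96-fold (edgeR adjusted p = 0.00107). Herc6 measured 23.6 CPM in WT 1, 36.0 in WT 2, 7.45 in KO 1 and 7.61 in KO 2. Trim25, an E3 ligase that also ubiquitinates RIG-I, rose 1.74-fold (edgeR adjusted p = 0.00537). Of 6 genes in this list, which counts Isg15 and Usp18, 1 rose and 2 fell. These shares were 16.7% and 33.3%, beside 22.0% and 20.2% of all genes tested.

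Oasl2, an oligoadenylate synthetase-like protein, lies on chromosome 5, 114896936 to 114912234 (plus strand). WT 1 held 23.1 CPM of Oasl2 and WT 2 37.5, while KO 1 held 37.2 and KO 2 45.3. The groups overlapped by a narrow margin, and the log2 difference was 0.44 ± 0.27 (SE of the fit, n = 2 per group, edgeR adjusted p = 0.215). It came to 0.15 (edgeR adjusted p = 0.707) without WT 1 and 0.84 (edgeR adjusted p = 0.0554) without WT 2.

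Mx1 encodes a dynamin-like antiviral GTPase, and the allele of C57BL/6 mice lacks coding exons and gives no full-length protein. It lies on chromosome 16, 97447035 to 97462907 (minus strand). The level of Mx1 was 11.3 (WT 1) and 31.2 CPM (WT 2), against 11.7 (KO 1) and 11.5 CPM (KO 2). WT 2 alone was high, and the other 3 libraries were alike. The log2 difference was -0.89 ± 0.46 (SE of the fit, n = 2 per group, edgeR adjusted p = 0.162). It came to -1.42 (edgeR adjusted p = 0.00694) without WT 1, 0.044 (edgeR adjusted p = 0.947) without WT 2 and -0.80 (edgeR adjusted p = 0.0434) without the filter on low counts. Mx2 measured 5.22 CPM in WT 1, 8.09 in WT 2, 5.43 in KO 1 and 3.56 in KO 2, and this relative of Mx1, which shares 4.38% of its 50-base words, did not pass (edgeR adjusted p = 0.318). Its log2 difference was -0.58 with all libraries, -0.22 without WT 2, -0.90 without KO 1 and -0.26 without KO 2.

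**Figure D2:**
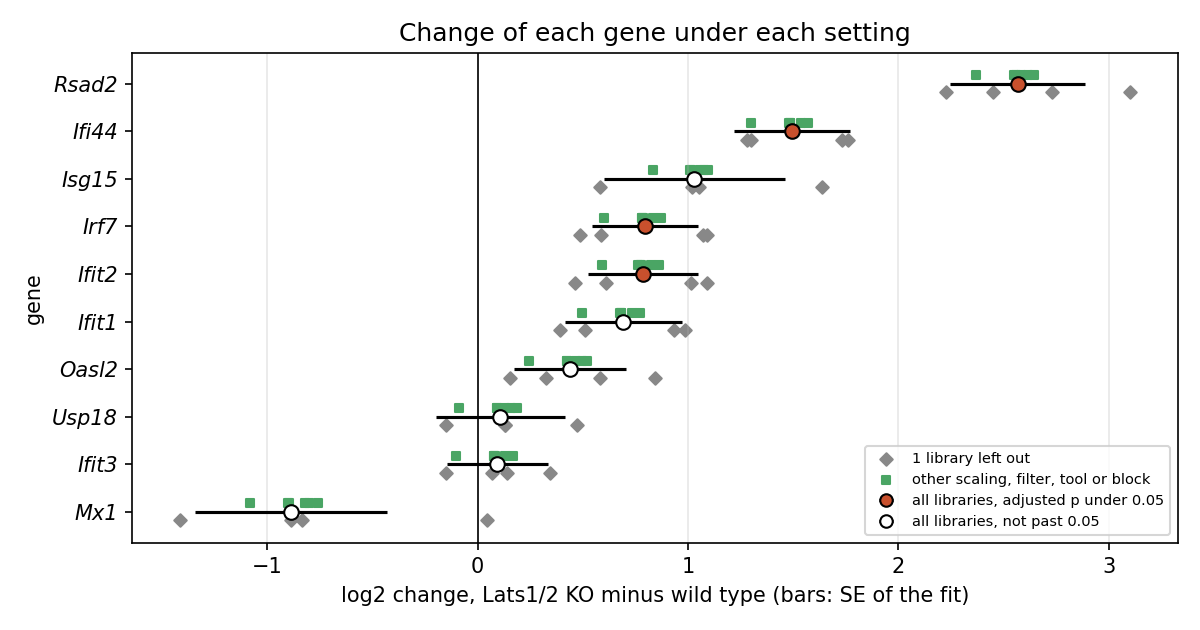
Log2 change of each gene, libraries labelled knockout minus wild type, with circles for the fit of all libraries (bars are the SE of the fit, filled circles have an adjusted p under 0.05), grey diamonds for fits without 1 library and green squares for the other alternatives. Rsad2 and Ifi44 stay above 1 on the log2 scale throughout, while Usp18, Ifit3 and Mx1 have values on both sides of 0.

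The 10 genes also varied within each group. In wild type, 9 of 10 were higher in WT 2 than in WT 1, by up to 2.77-fold in Mx1, and the exception was Isg15, which was 2.07-fold higher in WT 1. In the libraries labelled knockout, 7 of 10 were higher in KO 1 than in KO 2, by up to 1.52-fold in Ifit2, and the exceptions were Isg15, Oasl2 and Usp18. Among 59 other interferon-stimulated effectors, 44 were higher in WT 2 than in WT 1 and 36 in KO 1 than in KO 2. The same counts were not made over all genes. The summed level was 172 and 248 CPM in the wild-type libraries and 381 and 298 CPM in KO 1 and KO 2, so the sums did not overlap.

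Per kilobase of annotated exon, Ifit3 and Irf7 had the highest levels in wild type, at 14.3 and 15.2 CPM per kb for Ifit3 and 10.6 and 15.0 for Irf7. These ranges overlapped. Ifit2, Ifit1, Isg15, Mx1, Usp18 and Oasl2 followed, with means from 7.67 down to 4.76 CPM per kb and ranges that overlapped from each to the next. Ifi44 (1.61 and 2.24) and Rsad2 (0.951 and 1.76) were lowest, and they overlapped with each other but not with the rest. In the libraries labelled knockout the order of the mean levels was Irf7, Ifit3, Ifit2, Isg15, Ifit1, Rsad2, Oasl2, Ifi44, Usp18 and Mx1. Rsad2 stood there at 8.91 and 7.47 CPM per kb, apart from Ifit1 above it and from Oasl2 below it (5.84 and 7.11). Mx1 was lowest, at 3.08 and 3.04 CPM per kb. The exon lengths join all annotated transcripts, and for Irf7 they cover the whole model of 3776 bases, so its level per kilobase is understated if its introns are mostly spliced out.

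Transcripts of the interferons themselves were almost undetected. Of 20 type I and type III interferon genes, 17 had 0 counts in all libraries and 0 passed the filter on low counts. Ifnb1, the interferon that most cell types make first, had 2 counts in KO 1 and 0 in the other 3 libraries, and Ifnk and Ifnz had at most 3 counts in any library. A floor of 3 counts corresponds to 0.824 CPM in WT 1, 0.674 in WT 2, 0.604 in KO 1 and 0.486 in KO 2, and it covers counting error only.

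Of 9 receptor and transducer genes, 3 rose and 4 fell (median log2 change -0.59). These shares were 33.3% and 44.4%, beside 22.0% and 20.2% of all genes tested. The receptor chain Ifnar1 rose 1.56-fold (edgeR adjusted p = 0.0428). WT 1 held 63.5 CPM of Ifnar1 and WT 2 90.6, while KO 1 held 105 and KO 2 135. For Ifnar1 the adjusted p (edgeR unless named) was 0.129 with upper quartile scaling, 0.0602 by DESeq2, 0.224 without WT 1 and 0.183 without KO 2. The level of Ifnar2 was 47.3 (WT 1) and 40.5 CPM (WT 2), against 72.6 (KO 1) and 54.9 CPM (KO 2), and this second chain did not pass (edgeR adjusted p = 0.0675), although the edgeR adjusted p was 0.0209 without the count filter, 0.0272 with the replicate number as a block and 0.0377 without KO 2. The log2 difference of Ifnar2 was 0.54 with all libraries and 0.33 without KO 1 (edgeR adjusted p = 0.321). The receptor of type III interferons also rose, Ifnlr1 3.25-fold and its partner Il10rb 1.61-fold (edgeR adjusted p = 0.0153 and 0.0327). For Ifnlr1 the adjusted p (edgeR unless named) was 0.0675 without WT 2 and 0.136 without KO 2. For Il10rb the adjusted p (edgeR unless named) was 0.0969 with upper quartile scaling, 0.0626 by DESeq2, 0.0918 without WT 1, 0.0973 without WT 2 and 0.161 without KO 2.

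The kinase genes Jak1 and Tyk2 and the DNA-binding partner Irf9 fell. Jak1 fell 1.80-fold and Tyk2 1.78-fold (edgeR adjusted p = 0.00354 and 0.0107). Irf9 fell 1.62-fold (edgeR adjusted p = 0.0160). For Irf9 the adjusted p (edgeR unless named) was 0.113 when WT 2 was left out, 0.0585 without KO 1 and 0.0643 without KO 2. WT 1 held 49.2 CPM of Stat2 and WT 2 66.3, while KO 1 held 31.8 and KO 2 44.8, and it did not pass (edgeR adjusted p = 0.0792), although the edgeR adjusted p was 0.0260 with upper quartile scaling and 0.0154 with the replicate number as a block. The log2 difference of Stat2 was -0.59 with all libraries, -0.35 when WT 2 was left out (edgeR adjusted p = 0.396) and -0.36 when KO 1 was (edgeR adjusted p = 0.329). The Irf9 model shares 123 bases with Rnf31 on the same strand, which also fell. Same-strand models with 0 to 2 counts per library overlap Herc6, Ifnar2, Il10rb, Jak1, Ptpn11, Sp100 and Uba7, and whether the counting was affected was not examined.

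A list of other interferon-stimulated effectors, which includes Stat2 and Irf9, held 58 tested genes. Of these 8 rose and 26 fell (13.8% and 44.8%), beside 22.0% and 20.2% of all genes tested. Their median log2 change was -0.66. Oas1g, an oligoadenylate synthetase, rose 3.41-fold, the secreted glycoprotein gene Lgals3bp 2.67-fold and Parp12, an antiviral ADP-ribosyltransferase, 2.02-fold (edgeR adjusted p = 0.0251, 0.000306 and 0.0127). For Oas1g the adjusted p (edgeR unless named) was 0.0562 by DESeq2, 0.0964 without WT 1 and 0.198 without KO 1. For Parp12 the adjusted p (edgeR unless named) was 0.0563 without WT 1 and 0.0751 without KO 2. Sp100, a nuclear body protein, fell 6.53-fold (edgeR adjusted p = 6.29e-05). The level of Sp100 was 403 (WT 1) and 442 CPM (WT 2), against 78.7 (KO 1) and 51.0 CPM (KO 2). Ifitm1, which blocks virus entry, fell 5.60-fold (edgeR adjusted p = 0.00157). Ifitm1 measured 12.9 CPM in WT 1, 11.7 in WT 2, 2.62 in KO 1 and 1.78 in KO 2. Leaving out 1 library gave 4 to 7 genes of the list that rose (4 without WT 1 or KO 1) and 18 to 27 that fell, and both DESeq2 and upper quartile scaling gave 5 that rose. In the RefSeq promoter windows, 18 of 47 genes of this list (38.3%) held a match to the ISRE letters.

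**Figure D3:**
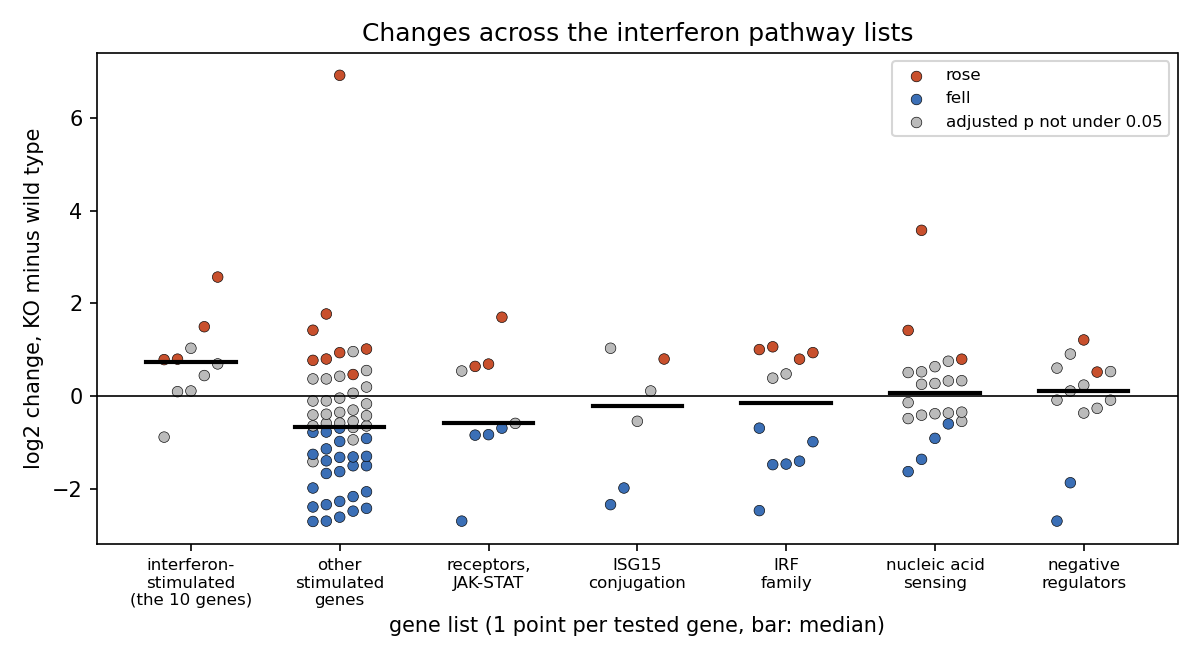
Log2 change, libraries labelled knockout minus wild type, of every tested gene in the lists, coloured by whether it rose, fell or did not pass, with the median of each list as a bar. The 10 genes have a median of 0.74 and the other stimulated genes one of -0.66; lists share genes, and the highest point is Ifi44l, whose fitted value rests on 0 wild-type counts.

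Of 12 interferon regulatory factors and their binding proteins, counting Irf7, 4 rose and 6 fell (median log2 change -0.15). As shares of the list, both were above the 22.0% risen and 20.2% fallen among all genes tested. Irf5, a factor of myeloid cells that drives inflammatory genes, rose 2.00-fold (edgeR adjusted p = 0.00687), and its model shares 1045 bases with Tnpo3 on the opposite strand. Irf2bpl, a relative of the IRF2-binding proteins, rose 1.91-fold (edgeR adjusted p = 0.00335). Irf4, a lymphocyte factor, fell 5.55-fold (edgeR adjusted p = 0.000267), Irf2, a repressor that competes for the same sites, fell 2.79-fold (edgeR adjusted p = 0.000252) and Irf1, a factor induced by interferon-gamma, fell 2.77-fold (edgeR adjusted p = 0.00187).

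Of 22 tested nucleic acid sensors, adaptors and kinases, 3 rose and 4 fell, and 15 did not pass. These shares of 13.6% and 18.2% were below the 22.0% and 20.2% of all genes tested. The endosomal RNA receptors Tlr7 and Tlr8 rose 2.67-fold and 11.9-fold, and Unc93b1, which carries these receptors to endosomes, rose 1.73-fold (edgeR adjusted p = 0.00245, 0.0156 and 0.0172). Tlr8 had 9 and 1 counts in wild type and 107 and 58 in the libraries labelled knockout, and its log2 change ranged from 2.62 to 5.96 without 1 library. For Tlr8 the adjusted p (edgeR unless named) was 0.120 without KO 1 and 0.0683 without KO 2. For Unc93b1 the adjusted p (edgeR unless named) was 0.0536 with upper quartile scaling, 0.0888 without WT 1 and 0.0759 without KO 1. Zbp1, a sensor of Z-form nucleic acid, fell 3.10-fold, Samhd1, which depletes nucleotides, 2.58-fold and Ddx58, the RNA helicase RIG-I, 1.88-fold (edgeR adjusted p = 0.000768, 0.000770 and 0.00351).

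Among 13 negative regulators, counting Usp18, 2 rose and 2 fell. Each share was 15.4%, below the 22.0% risen and 20.2% fallen among all genes tested. Socs3, an inhibitor of JAK signalling, rose 2.31-fold and the phosphatase Ptpn11 1.43-fold (edgeR adjusted p = 0.00178 and 0.0312). For Ptpn11 the adjusted p (edgeR unless named) was 0.147 with upper quartile scaling, 0.0524 by DESeq2, 0.0589 without WT 1, 0.213 without WT 2, 0.0633 without KO 1 and 0.0680 without KO 2. The phosphatase Ptpn6, made mainly in blood cells, fell 3.66-fold and Nlrc3, which restrains signalling downstream of STING, 6.49-fold (edgeR adjusted p = 0.000131 and 0.000249). Over all pathway lists, with each gene counted only once and the 10 genes left out, 19 of 108 tested genes rose and 39 fell (17.6% and 36.1%).

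Marker genes of several cell types differed between the same libraries. The counts below stand beside 22.0% risen and 20.2% fallen among all genes tested. Of 15 macrophage and monocyte markers 14 rose, with a summed level of 717 to 731 CPM in wild type and 5094 to 7232 CPM in the libraries labelled knockout, and the exception was Ly6c2, a monocyte gene that fell. Of 11 tested T and NK cell markers 11 fell, with sums of 1195 to 1284 and 26.5 to 46.3 CPM, and Ncr1 had 0 counts in both knockout-labelled libraries. Of 10 B and plasma cell markers 10 fell, with sums of 2831 to 3149 and 108 to 263 CPM. Of 9 tested plasmacytoid dendritic cell markers 5 fell and 2 rose, with sums of 891 to 1275 and 302 to 392 CPM. WT 1 held 23.4 CPM of Siglech and WT 2 33.9, while KO 1 held 2.62 and KO 2 3.88. Siglech is a marker of these interferon-producing cells but a small part of the summed level. In the same list 2 markers rose and 2 did not pass. Of 10 fibroblast markers 7 rose and 2 fell, with sums of 3729.5 to 4209.8 and 11046 to 16764 CPM. Of 10 endothelial markers 6 fell, with sums of 1295 to 1407 and 674 to 798 CPM. Of 8 islet markers 4 fell, with sums of 1193 to 2211 and 173 to 291 CPM. Neutrophil markers were low, with sums of 22.0 to 24.5 and 22.5 to 37.2 CPM, and Ly6g had 2 counts in WT 1 and 0 in the other 3 libraries. The part of these cell types in the changes of the interferon-stimulated genes was not tested.

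**Figure D4:**
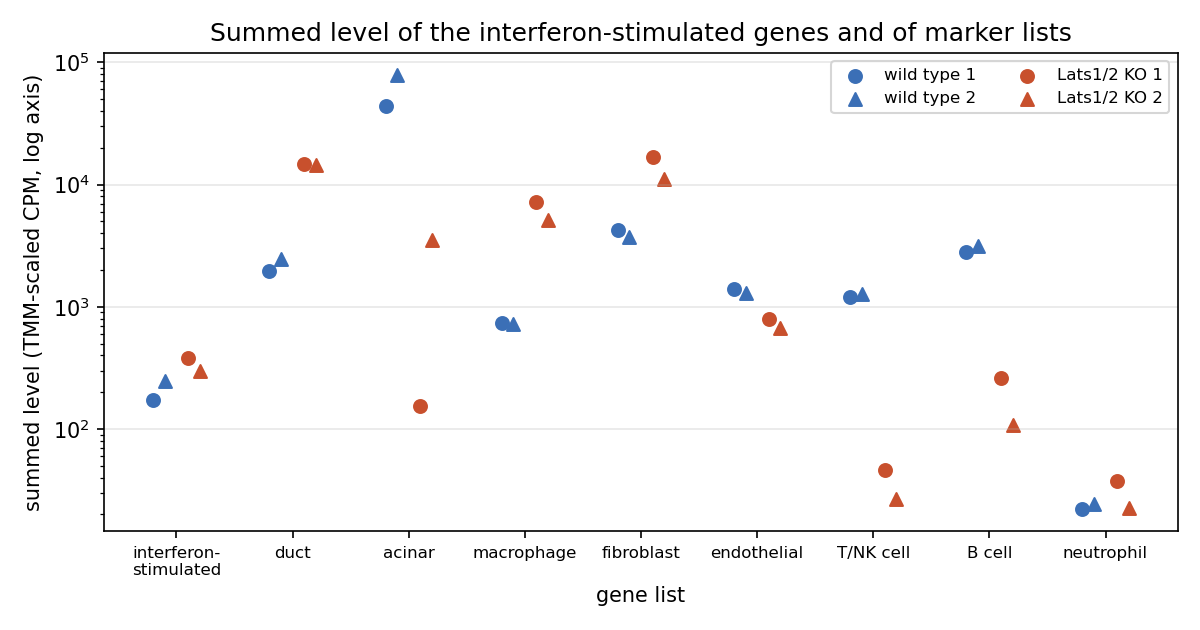
Summed level of the 10 interferon-stimulated genes and of the marker lists in each library, as TMM-scaled CPM on a log axis, with wild type in blue and the libraries labelled knockout in orange. Macrophage, fibroblast and duct sums are higher and lymphocyte and acinar sums lower in both knockout-labelled libraries.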

How the data were processed

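Total RNA was taken with easy-BLUE and sequenced as Clontech SMARTer stranded libraries, per the labels' protocols. The authors deposited raw counts for each gene model, in a file of its own for every library. Per the submitters' processing notes the build was mm10 and TopHat and edgeR were used. The sources used here do not give the counting program, its annotation, its strand setting or its handling of reads that match more than 1 gene. Starts, counted from 0 in the files, are given from 1, and chromosome, start and end equalled those of GENCODE M21 for 10 of 10 members.

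The edgeR package (4.0.16, in R 4.3.3) was used to drop low counts (filterByExpr), to compute TMM factors and to run the quasi-likelihood test (robust glmQLFit, then glmQLFTest) on all 4 libraries with genotype as the only term, which left 2 residual degrees of freedom. P-values were adjusted by Benjamini-Hochberg over all genes tested, with a threshold of 0.05. Levels are TMM-scaled CPM, and the SE is the log2 change divided by the square root of the F statistic. Alternatives were other scalings (DESeq2 size factors, upper quartile, library size alone), no filter, DESeq2 1.42.0, the replicate number as a block and each library left out. A fit without 1 library has 1 sample in 1 group, which is assumed to vary like the other group.

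Counts within each pair of replicates differed by more than sampling noise (chi-square per degree of freedom of 20.06 in wild type and 19.98 in the other group). The members and lists were chosen with earlier results of these data known. By rule, the genes named besides the 10 members are the receptors and transducers, Ifnb1 and 3 relatives or near copies of members (Ifit1bl1, Ifit3b and Mx2). From each list the rule adds up to 3 risen and 3 fallen genes. These had groups that did not overlap and a higher group with a mean of at least 5 CPM. Named outside the rule are Ifi44l, Ifnk, Ifnz, Lats1, Lats2, Ly6c2, Ncr1, Siglech, Ly6g and models that overlap or share sequence. Of the genes this rule names, 2 are not reported here, though they remain in the fit and in the counts of their lists.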

Additional observations from a re-analysis of the deposited data

How the results depend on the processing

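Among the 10 genes, 4 rose with all libraries, 2 with upper quartile scaling and 2 to 5 without 1 library. The count that fell was 0 with all libraries, 1 without the filter on low counts and 0 to 1 without 1 library, the gene being Mx1. Over the pathway lists 19 genes rose with all libraries, 12 with upper quartile scaling and 11 to 15 without 1 library. Over all genes 2832 fell with all libraries and 1867 to 2276 without 1 library. The risen count over all genes also dropped, from 3077 with all libraries to 2339 with upper quartile scaling, where 3594 fell. The cause of these shifts was not tested, and the fits without 1 library also rest on fewer libraries. Under upper quartile scaling the median over all genes went from -0.0069 to -0.20 on the log2 scale, and 39.4% of the called genes rose in place of 52.1%. That scaling gave log2 changes of -0.10 for Ifit3 and -0.088 for Usp18. Without 1 library the log2 change ran from -0.15 to 0.35 for Ifit3, from -0.15 to 0.47 for Usp18, from -1.42 to 0.044 for Mx1 and from -0.67 to 0.36 for Ifit3b. Of these, the fall of Mx1 without WT 1 passed and the values of turned sign did not. Over 10 alternatives for each of the 10 genes, 81 of 100 values kept the direction and the side of the threshold.

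The replicate numbers in the titles are not stated to mark a shared animal or day, and same-numbered libraries deviated from their group means with a correlation of 0.0355 across genes, so they were not treated as pairs. With the replicate number as a block 6 of the 10 genes rose (Ifit1 and Isg15 in addition, edgeR adjusted p = 0.0340 and 0.0472), and over all genes 3466 rose and 3190 fell. Isg15 had only 13 to 57 counts per library, and the part of depth in its result was not tested.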
